A study of Mus musculus with 16 samples.

Results

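The mitochondrial gene mt-Nd2 (RefSeq symbol ND2) lies on the forward strand of the mouse mitochondrial genome at chrMT:3914-4951 in GRCm38 and codes for a protein of 345 amino acids without introns. Its alleles were taken as every non-reference base at positions 3914 to 4949, which leaves out the overlap with the tRNA gene TrnW that starts at 4950. This gave 3108 alleles at 1036 positions, of 48897 alleles at 16299 positions in the whole mitochondrial genome. Names such as C4093T give the base of the reference, then the position (the GRCm38 mitochondrial sequence starts at 1), then the base read in its place. The allele fraction is the count of that base divided by the coverage of the position.

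ND2 is a subunit of the membrane arm of complex I, the NADH:ubiquinone oxidoreductase that takes electrons from NADH and pumps protons across the inner mitochondrial membrane. Complex I is built from subunits of mitochondrial and of nuclear genes. A cell holds many copies of mitochondrial DNA, so an allele can be present in any share of them (heteroplasmy). PolG is the polymerase that copies this DNA, and the D257A change takes away its proofreading activity, so that errors of copying are kept.

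The 16 libraries were bulk ATAC-seq libraries, in which Tn5 transposase cuts and tags accessible DNA, from femur cells of mice with the genotype PolG D257A/D257A at an age of 3 months. No group of another genotype or age was analysed here. The cells had been sorted into 8 subsets named for surface markers, CD45, CD105, Thy, 6C3, Thy_6C3, CD29, CD24 and CD24_CD29, and every subset had a replicate 1 and a replicate 2. CD45 marks cells of the blood lineage and the other markers part skeletal cell populations. The sources used here give neither the gates, nor the number of mice behind a library, nor the meaning of the replicate number. The p-values below therefore rest on the spread between these libraries alone, which may be technical. Bases of mitochondrial DNA name no cell type, so the subset labels could not be checked against marker genes.

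Mean coverage of mt-Nd2 ran from 5508 counts per position in CD24_CD29 replicate 2 to 61923 in CD29 replicate 1, with a median of 18352 over the 16 libraries, and was 74.7% to 86.1% of the mean over the whole mitochondrial genome. The lowest coverage at any position of the gene in any library was 3503. Taking 3 counts of the mean coverage as the limit that a count of 0 allows, the limit was 0.0545% for CD24_CD29 replicate 2 and 0.00484% for CD29 replicate 1. These limits, and the 95% exact (Clopper-Pearson) intervals given for single libraries, cover counting error only. Thy replicate 2 stood apart from the other 15 libraries in its non-reference bases, as described with the subsets. Several results that rest on it are given with and without it.

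The alleles that the results turn on are shown first in their reference sequence, 15 bases on each side, read 5′ to 3′ on the forward strand from the reference bases in the deposited coverage table (GRCm38). The capital marks the base that was replaced. The first 4 were high in the libraries of replicate 1.
C4093T, chrMT:4078-4108: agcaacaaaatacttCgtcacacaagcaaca
C4216T, chrMT:4201-4231: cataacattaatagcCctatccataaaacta
C4493T, chrMT:4478-4508: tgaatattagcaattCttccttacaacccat
C4866T, chrMT:4851-4881: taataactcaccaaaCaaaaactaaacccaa

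The next 5 were high in the libraries of replicate 2. C4548T and A4549C are neighbouring bases of codon 212, so their windows overlap.
T3975C, chrMT:3960-3990: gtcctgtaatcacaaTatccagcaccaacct
C4548T, chrMT:4533-4563: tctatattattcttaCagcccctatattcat
A4549C, chrMT:4534-4564: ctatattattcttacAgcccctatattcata
T4773C, chrMT:4758-4788: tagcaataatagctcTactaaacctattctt
A4524G, chrMT:4509-4539: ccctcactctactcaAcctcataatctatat

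A further 4 are shown because they stood near 1% in both numbers (C4060A and A4273C), brought in a stop codon (T4377A), or had the smallest p of the gene between subsets (T4813C). At C4060A the replaced base follows a run of A, and the new base would lengthen that run to 9.
C4060A, chrMT:4045-4075: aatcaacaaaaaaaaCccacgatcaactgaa
A4273C, chrMT:4258-4288: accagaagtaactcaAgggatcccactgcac
T4377A, chrMT:4362-4392: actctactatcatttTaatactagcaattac
T4813C, chrMT:4798-4828: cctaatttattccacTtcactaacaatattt

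Each replicate number carried its own high mt-Nd2 alleles, and several of them were present in all 8 subsets of the number. Here an allele counts as present in a library from 1% of the coverage and 5 counts upward, and such an allele is called counted. Over the 8 libraries of replicate 1, 24 alleles of the gene were counted in at least 1 library, 4 of them in all 8 (16.7%) and 14 in exactly 1 (58.3%). Over the whole mitochondrial genome these shares were 10.8% and 64.9% of 493 alleles. Over the 8 libraries of replicate 2 these numbers were 236, 3 and 226, and without Thy replicate 2 they were 40, 3 (7.5%) and 33 (82.5%), against 7.84% and 76.5% of 753 alleles in the whole genome. No allele was counted in all 8 libraries of both numbers.

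Replicate 1 held 3 alleles above 4% in each of its libraries, all C>T changes. C4093T leaves phenylalanine at codon 60 unchanged (F60F) and had fractions of 5.21% in CD29 at the lowest, 7.42% at the median and 8.21% in Thy_6C3 at the highest. C4216T leaves alanine at codon 101 unchanged (A101A) and ran from 5.32% in CD29 through a median of 7.05% to 8.01% in Thy_6C3. The subsets stood in much the same order for both silent alleles: CD29 and Thy were lowest, at 5.21% and 5.34% for C4093T and at 5.32% and 5.40% for C4216T. Pearson's r between C4093T and C4216T over the 8 libraries was 0.91, given as a description since the libraries share the alleles. They lie 123 bases apart, neither was above the other in more than 4 of 8 libraries, and the largest gap was 1.25 percentage points, in CD24_CD29.

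C4493T replaces leucine by phenylalanine at codon 194 (L194F). It was lowest in Thy_6C3 at 4.76%, had a median of 6.02%, and was highest in CD24_CD29 at 9.72% (95% interval 9.11 to 10.3, 883 of 9089 counts). The subset with the highest C4093T was thus the one with the lowest C4493T, and r between them was 0.20. C4866T, which replaces threonine by methionine at codon 318 (T318M), was lower throughout, from 1.61% in CD24_CD29 through a median of 2.17% to 2.64% in Thy. Its order ran against that of C4093T, with r = -0.86 over 8 libraries. The deposited counts are per position and do not say which alleles share a DNA molecule.

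**Figure D1:**
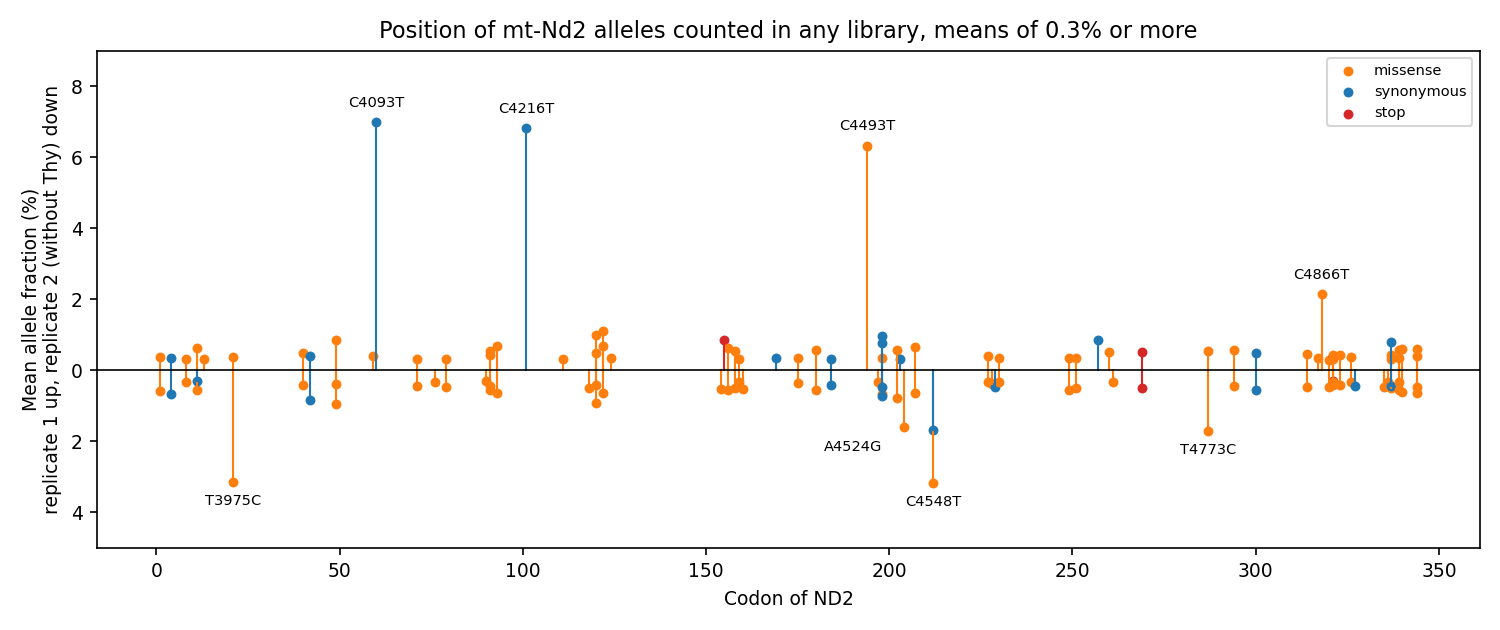
Mean allele fraction (%) of mt-Nd2 alleles by codon, over the 8 libraries of replicate 1 (upward) and the 7 libraries of replicate 2 without Thy (downward), for alleles counted in any library with a mean of 0.3% or more, coloured by effect on the protein. The alleles C4093T, C4216T, C4493T and C4866T exceed 2% in replicate 1 only, and T3975C and C4548T reach past 3% in replicate 2 only.

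In replicate 2 the highest alleles were lower than in replicate 1. Of the 5 shown, 4 change the protein, against 76.4% of all possible mt-Nd2 alleles. T3975C replaces methionine by threonine at codon 21 (M21T) and ran from 2.26% in CD105 through a median of 3.03% to 4.46% in CD24_CD29. C4548T replaces threonine by methionine at codon 212 (T212M) and ran from 2.1% in CD105 through a median of 2.96% to 5.80% in CD24_CD29 (95% interval 5.06 to 6.62, 206 of 3549 counts). CD24_CD29 was therefore the highest subset and CD105 the lowest for both missense alleles, with r = 0.91 over 8 libraries at a distance of 573 bases. T4773C, which replaces leucine by proline at codon 287 (L287P), ran from 1.0% in Thy_6C3 through a median of 1.52% to 2.90% in CD24.

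A4549C, at the base next to C4548T, leaves threonine at codon 212 unchanged (T212T). It ran from 0.517% in Thy_6C3 through a median of 2.05% to 2.88% in Thy. C4548T and A4549C did not share an order: CD24_CD29 was highest for C4548T and stood at 1.19% for A4549C, and r was -0.47. A4524G replaces asparagine by serine at codon 204 (N204S) and ran from 0.534% in Thy_6C3 through a median of 1.5% to 2.18% in 6C3. Thy_6C3 thus held the lowest fraction of A4549C, A4524G and T4773C in replicate 2, while its T3975C and C4548T stood at 2.85% and 3.14%, within the range of the other subsets.

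**Figure D2:**
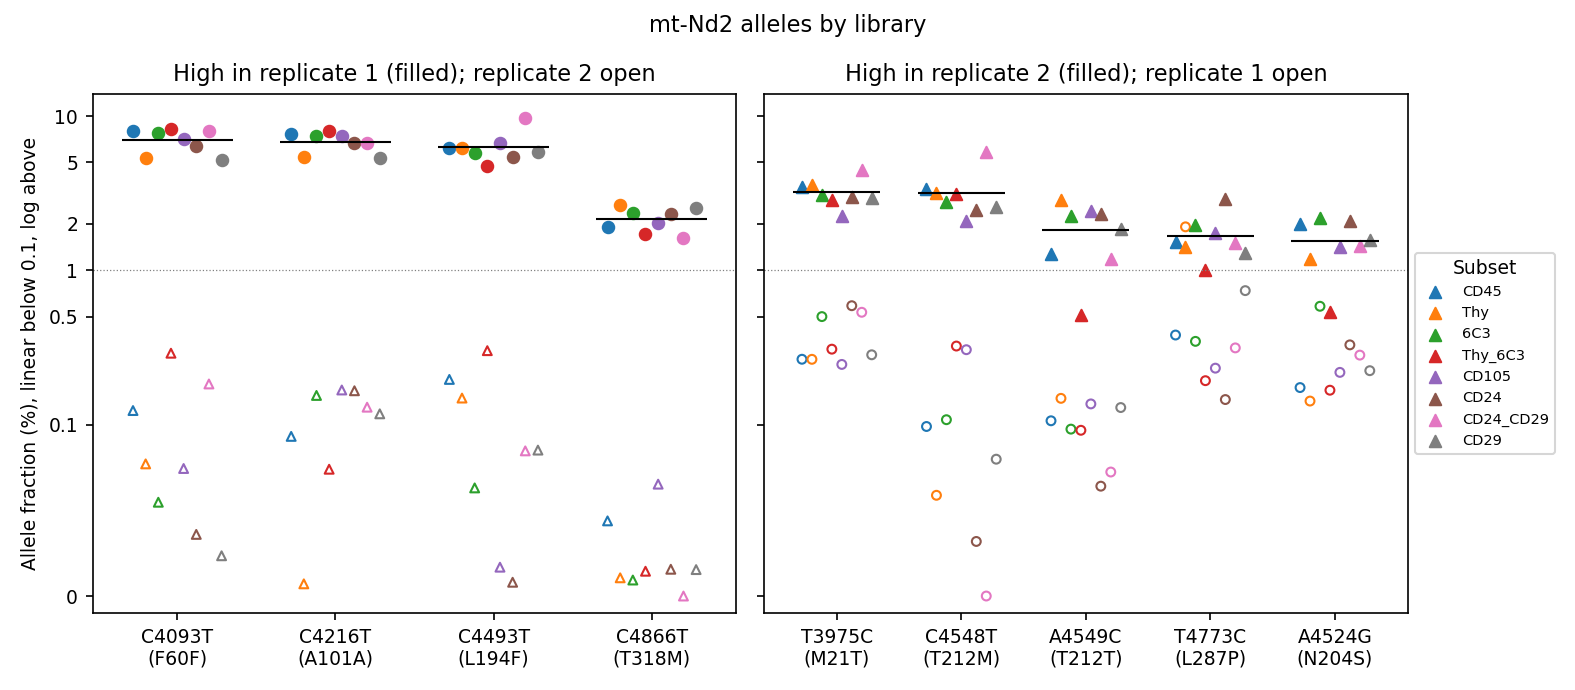
Allele fraction (%, linear below 0.1 and logarithmic above) of 9 mt-Nd2 alleles in each of the 16 libraries, coloured by subset. Circles are replicate 1 and triangles replicate 2, filled for the number in which the allele was high, with its mean as a bar. For C4093T, C4216T, C4493T and C4866T no library of replicate 2 exceeds 0.301%, and 1 open circle of T4773C (Thy, 1.91%) lies within the filled range.

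Between the replicate numbers, 12 of the 55 mt-Nd2 alleles tested differed (edgeR quasi-likelihood test, Benjamini-Hochberg adjustment over the whole table), 21.8% of them against a background of 21.1% called among all 793 alleles tested. The tested alleles had a mean fraction of 0.5% or more over all 16 libraries. An allele high in 1 number passes this filter through that number, so the count, and the adjusted p given below for such alleles, are descriptions. Just inside the filter stood C4327A (P138P) and G4748T (A279S), each with a mean of 0.501%, and just outside T4197C (L95P) at 0.496% and C4506T (P198L) at 0.494%. Of the 12 alleles, 7 were higher in replicate 1 (background 9.84%) and 5 in replicate 2 (background 11.2%).

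C4093T was 6.99% ± 1.22 in replicate 1 and 0.108% ± 0.0898 in replicate 2 (SD, n = 8 each), a log2 difference of 6.45 ± 0.33 (SE, edgeR adjusted p = 2.1e-07). C4216T was 6.81% ± 1.0 and 0.114% ± 0.0547, a log2 difference of 6.10 ± 0.33. C4493T (6.16 ± 0.48) and C4866T (6.72 ± 0.39) had log2 differences of like size. The next 3 alleles were smaller: C4279A, a change of isoleucine to methionine at codon 122 (I122M), was 1.11% ± 0.319 and 0.247% ± 0.0553, with a log2 difference of 2.14 ± 0.20. T4377A, which turns leucine 155 into a stop codon (L155*), was 0.862% ± 0.483 and 0.244% ± 0.0720, with a log2 difference of 1.66 ± 0.27. A4507G leaves proline 198 unchanged (P198P) and was 0.963% ± 0.292 and 0.446% ± 0.422. The 8 libraries of each number did not overlap for C4093T, C4216T, C4493T, C4866T and C4279A. They overlapped for T4377A, where CD24 replicate 1 had 0.220%, and for A4507G, where CD24_CD29 replicate 2 had 1.46%.

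In the other direction, C4548T was 0.126% ± 0.122 in replicate 1 and 3.17% ± 1.14 in replicate 2, a log2 difference of -4.83 ± 0.50 (SE, edgeR adjusted p = 2.4e-05). A4549C (-4.03 ± 0.23), T3975C (-3.19 ± 0.17) and A4524G (-2.61 ± 0.19) followed. T3975C was not near 0 in replicate 1: its 8 libraries ran from 0.245% to 0.590%, against a lowest value of 2.26% in replicate 2. T4773C had the smallest called difference of this direction, -2.06 ± 0.44 (edgeR adjusted p = 0.00521). The groups of T4773C overlapped, since Thy replicate 1 had 1.91% (95% interval 1.73 to 2.11) while the other 7 libraries of replicate 1 reached no more than 0.739%. Those of A4524G overlapped as well, with 0.585% in 6C3 replicate 1 and 0.534% in Thy_6C3 replicate 2, while those of C4548T, A4549C and T3975C did not. T4773C missed the threshold with a quasi-binomial model (adjusted p = 0.0858) and with no filter on the fraction (adjusted p = 0.177).

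By consequence, the 7 alleles higher in replicate 1 were 3 synonymous changes, 3 missense changes and 1 stop, and the 5 higher in replicate 2 were 4 missense changes and 1 synonymous change. C>T changes were 4 of the 7 and 1 of the 5, against 20 of 78 and 17 of 89 among all called alleles of the table. Among the other 6 mitochondrial genes of complex I (ND1, ND3, ND4, ND4L, ND5 and ND6), 63 of 246 alleles were called (25.6%), 29 higher in replicate 1 and 34 higher in replicate 2. The share called ran from 9.30% in ND6 to 50% in ND4L, where 7 of 14 alleles were called.

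The 4 high alleles of replicate 1 carried much of the C>T signal of the gene there. C4093T, C4216T, C4493T and C4866T together made up 39.0% (Thy) to 53.7% (CD24_CD29) of the summed C>T fractions over the 288 C positions of mt-Nd2, and 0.695% to 1.87% in replicate 2. The mean C>T fraction ran from 0.151% to 0.190% in replicate 1 and from 0.0877% to 0.126% in replicate 2, with no overlap. Without those 4 alleles it ran from 0.0789% to 0.113% and from 0.0878% to 0.126%, and the numbers overlapped.

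Libraries of the same number differed from each other by more than counting error at each high allele. Among alleles with a mean of 1% or more, all 6 of mt-Nd2 differed over the 8 libraries of replicate 1 (chi-square test, Benjamini-Hochberg adjustment; background 89.3% of 103 alleles), and all 7 over those of replicate 2 (background 97.5% of 121). Without Thy replicate 2, all 5 alleles with such a mean over the remaining libraries of its number differed (background 89.4% of 113). These tests compare single libraries, not subsets. The highest fraction was 1.58 times the lowest for C4093T and 1.5 times for C4216T, against 2.77 times for C4548T, 4.09 times for A4524G and 5.56 times for A4549C. With all counts divided by 10, 3 of the 6 and 3 of the 7 still passed (background 48.5% and 48.8%). Over all alleles counted in at least 1 library of a number, 24 of 24 and 236 of 236 passed (background 96.3% and 99.8%). These alleles were chosen for reaching 1% in the same libraries, 14 and 226 of them in exactly 1. Passing was therefore close to fixed in advance. Of the 236, 196 were counted in Thy replicate 2 only among the libraries of its number.

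Some alleles stood near 1% in most libraries of both numbers. A4273C, a change of glutamine to histidine at codon 120 (Q120H), was 1.01% ± 0.142 in replicate 1 and 0.913% ± 0.232 in the 7 libraries of replicate 2 other than Thy, which had 2.59%. C4060A, a change of asparagine to lysine at codon 49 (N49K), was 0.854% ± 0.206 and 1.02% ± 0.315, highest in the Thy_6C3 and Thy libraries of replicate 2 at 1.5% and 1.45%. A4507C (P198P) was 0.767% ± 0.0721 in replicate 1 and 0.734% ± 0.149 in replicate 2 without Thy, where it reached 2.77%. None of A4273C, C4060A and A4507C passed the test between numbers; the largest of their log2 differences was -0.23 ± 0.16, for C4060A (edgeR adjusted p = 0.503). Of the 55 alleles that passed the filter, 15 were C>A and 7 were G>T changes, against 6 each of A>G and C>T, 8 A>C, 5 T>C and 4 T>G.

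Outside Thy replicate 2 only 3 stop alleles of mt-Nd2 were counted, too few to compare their share with that of all alleles. Of the 164 single-base changes of mt-Nd2 that create a stop, 18 were counted in at least 1 of the 16 libraries and 3 in at least 1 of the 15 other than Thy replicate 2. The latter is 1.83%, against 58 of all 3108 alleles of the gene (1.87%). None of the 42 stop transitions was counted, against 8 of 386 synonymous and 6 of 607 missense transitions in replicate 1 (9 and 19 in replicate 2 without Thy). At such low shares, 42 possible changes are too few to compare. Stop transitions of the other 12 protein genes were counted, 6 of 379 in replicate 1 and 9 in replicate 2 without Thy. In the other 12 protein genes, 11 of 1628 stop changes were counted in replicate 1, against 300 of all 30696 alleles. In replicate 2 without Thy these were 14 and 455. In mt-Nd2, 2 and 1 of the 164 were counted. T4377A (L155*) reached 1.82% in Thy replicate 1 (95% interval 1.66 to 1.99, 464 of 25491 counts) and 1.09% in CD45 replicate 1. A4874T, which turns lysine 321 into a stop (K321*), was counted only in Thy_6C3 replicate 1, at 1.37% (95% interval 1.22 to 1.54), against at most 0.424% in the other libraries of that number and 0.596% in replicate 2. G4718T (E269*) had 0.525% ± 0.0948 in replicate 1 and 0.50% ± 0.0599 in replicate 2 without Thy, and was counted only in Thy replicate 2, at 1.01%. C4439A (R176*) and T4456G (Y181*) had means of 0.380% and 0.206% in replicate 1, and T4456G reached 1.72% in Thy replicate 2.

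Private alleles, counted in 1 library only of the 8 with the same number, were spread unevenly over the subsets. CD45, 6C3 and CD105 had none in either number. Thy had 3 in replicate 1, led by T4773C, and 196 in replicate 2. CD24_CD29 had 5 in replicate 1 and 14 in replicate 2, and the highest of them was the same in both: A4277G, a change of isoleucine to valine at codon 122 (I122V), at 1.17% (95% interval 0.963 to 1.42) and 1.68% (1.33 to 2.08). The other 14 libraries had between 0.198% and 0.804% of A4277G. Thy_6C3 had 3 in replicate 1 and 10 in replicate 2, led there by A3916T at 1.80% (1.58 to 2.05), which changes the start codon (M1I). CD24 had 2 in each number, led by T4032C (I40T) at 1.19% and C3925T (I4I) at 1.25%. C3925T was also counted in CD24 replicate 1, at 1.04%, against at most 0.445% in the rest of replicate 1. CD29 had 1 in replicate 1, A4793T (T294S) at 1.0%, and 4 in replicate 2, led by T4659C (L249P) at 1.80% (1.64 to 1.97). CD24_CD29, with the most apart from Thy replicate 2, also had the lowest coverage of mt-Nd2 in each number, at 10106 and 5508 counts per position; the part of depth in this count was not tested.

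The comparison of subsets asks whether they differ in how much of mt-Nd2 is non-reference. Transition load, the mean over positions of the summed A>G, G>A, C>T and T>C fractions, was highest in 6C3 at 0.189% ± 0.0337 (SD, n = 2), with 0.212% and 0.165% in its libraries. It was followed by CD29 at 0.166% ± 0.0143, Thy at 0.149% ± 0.0109 and CD45 at 0.141% ± 0.0185. CD105 (0.131%), Thy_6C3 (0.130%), CD24_CD29 (0.129%) and CD24 (0.126%) lay close together at the low end. No neighbours in this order were separate: the libraries of each subset overlapped those of the next. Subsets held 76.6% of the variance (exact permutation p = 0.0392, one-sided; adjusted p = 0.147 with 4 measures), so the difference did not pass. Without 6C3 replicate 2 they held 88.8% and passed (adjusted exact permutation p = 0.0325). There 6C3 is the single library of the highest value and adds no spread within subsets.

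T>C changes led this order. Their mean fraction per T position was 0.344% and 0.293% in the 6C3 libraries and 0.232% and 0.311% in those of CD29, against 0.158% to 0.264% in the other 12. The excess was spread over the gene: 6C3 was above the median of the other 7 libraries of its number at 261 and 231 of the 284 T>C alleles of mt-Nd2, and at 291 and 289 of the 382 A>G alleles. CD24_CD29 was above that median at 100 and 76 of the T>C alleles. Yet 6C3 had the fewest counted alleles, 5 in each library, and without all alleles counted in any library its transition load was 0.175% and 0.143%. Only CD29 replicate 2, at 0.154%, stood between these values. In the other 12 protein genes too, transition load was high in 6C3 (0.217% and 0.185%) and in CD29 (0.163% and 0.189%). The remaining libraries had 0.133% to 0.164% there.

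Thy replicate 2 had 205 counted alleles, and each of the other 15 libraries had 5 to 22. Their mean was 17.5 ± 6.36 (SD, n = 2) in CD24_CD29, 12 ± 4.24 in Thy_6C3 and 9 ± 2.83 in CD29, followed by CD24 with 7 in both libraries, CD45 with 7 and 6, and CD105 with 7 and 5. With all libraries, subsets held 47.4% of the variance (exact permutation p = 0.271, one-sided). Without both Thy libraries they held 77.2% (adjusted exact permutation p = 0.0963), and with the replicate number as a block as well 82.1%, which passed (adjusted exact permutation p = 0.0381).

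**Figure D3:**
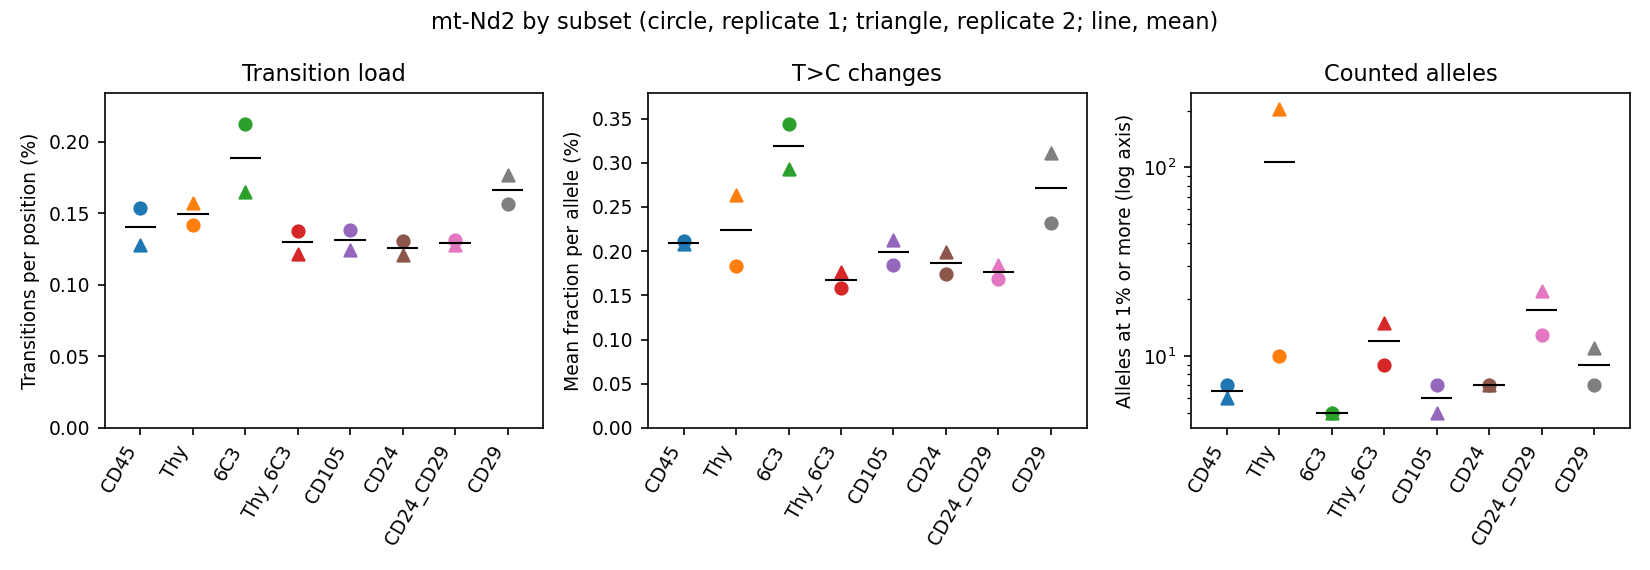
Transition load (% per position), mean T>C fraction (%) and number of counted alleles (log axis) of mt-Nd2 in each subset; circles are replicate 1, triangles replicate 2 and lines the mean of both. The 6C3 libraries have the highest mean transition load and the fewest counted alleles, and the triangle of Thy stands at 205 alleles.

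Thy replicate 2 stood above the other 15 libraries in every kind of transversion, most of all in A>C and T>G changes. Of its 205 counted mt-Nd2 alleles, 184 were of these kinds, while the other 15 libraries had 0 to 2 each. The mean A>C fraction was 0.886% and the mean T>G fraction 0.70%, against 0.0967% to 0.157% and 0.0773% to 0.127% in the other libraries. The other transversions were higher too: G>C was 0.229% against at most 0.0812%, T>A 0.434% against 0.208%, C>G 0.0937% against 0.0487%, C>A 0.566% against 0.364%, G>T 0.602% against 0.387% and A>T 0.336% against 0.219%. Its mutation load, the mean over positions of all non-reference bases, was 1.17%, against 0.384% to 0.501% in the others, and 0.649% against at most 0.439% without A>C and T>G changes. Its transition load of 0.157% lay within their range of 0.121% to 0.212%. A4881C (N323T) was its highest allele not counted elsewhere in its number, at 2.85% (95% interval 2.61 to 3.10), against at most 0.523%. Its coverage of 15940 counts per position was near the middle of the 16 libraries, and no other measure of its quality was used here. The other 12 protein genes had 157 counted alleles per kilobase in Thy replicate 2, against 4.59 to 23.2 in the other 15 libraries.

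No mt-Nd2 allele differed over all subsets in edgeR's quasi-likelihood test (background 0% of 793), with 1 of 55 at an unadjusted p under 0.05. None differed in any of the 8 comparisons of a subset with the mean of the other 7 (background 0% in each). In Thy, 21 of 55 had an unadjusted p under 0.05 (38.2%, against 31.8% of all 793), in CD24 and CD24_CD29 2 each, in 6C3, Thy_6C3 and CD29 1 each, and in CD45 and CD105 0. Over all alleles these shares were 4.41% and 7.06% in CD24 and CD24_CD29 and at most 4.29% in the others. In Thy the median log2 difference of the tested mt-Nd2 alleles was 0.505, and 0.122 with Thy replicate 2 left out. Over all tested alleles these medians were 0.387 and 0.0396. With Thy replicate 2 left out, 44 mt-Nd2 alleles and 668 in all passed the filter, so some of the 55 and 793 entered through that library. The counts and medians of Thy, also in the alternatives that follow, are therefore descriptions. DESeq2 called 1 allele over all subsets (background 2.77%), and 10 in Thy (21.2%), 1 in CD24 (0.631%) and 1 in CD24_CD29 (2.02%). With coverage as an offset, edgeR called 11, all in Thy (23.1%). Without Thy replicate 1 it called 9 over all subsets (21.4%) and 29 in Thy (42.4%). With the replicate number as a block it called 0 (background 0.631% in CD24_CD29 and 0% over all subsets and in each other subset).

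T4813C, which leaves threonine at codon 300 unchanged (T300T), had the smallest p of the gene over all subsets. It was lowest in CD24 in both numbers, at 0.184% and 0.137%, against 0.228% to 1.12% in the other 14 libraries. It was highest in CD24_CD29 in replicate 2, at 1.12%, and stood at 0.859% in CD24_CD29 in replicate 1, below 6C3 at 0.901%. The mean of the libraries outside CD24_CD29 was 0.443% in replicate 1 and 0.472% in replicate 2. Without CD24_CD29 this allele would thus have missed the filter of 0.5%, and its p-values for that subset are descriptions. The log2 difference was -1.72 ± 0.38 for CD24 (SE, edgeR adjusted p = 0.439; DESeq2 adjusted p = 0.00988) and 1.29 ± 0.37 for CD24_CD29 (edgeR adjusted p = 0.366; DESeq2 adjusted p = 0.0451). Over 21 alternatives the adjusted p ran from 0.00988 to 0.982 for CD24, and DESeq2 alone passed.

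A4875C, a change of lysine to threonine at codon 321 (K321T), had the smallest p in Thy. It was 0.760% in Thy replicate 1, above the other 7 libraries of that number at 0.349% to 0.441%, and 2.63% in Thy replicate 2, above the others at 0.305% to 0.847%. Its mean was 0.433% in replicate 1 and 0.416% in replicate 2 without Thy, so it passed the filter of 0.5% only through Thy replicate 2. The p-values given for it here are therefore descriptions. Its log2 difference was 1.89 ± 0.43 (SE, edgeR adjusted p = 0.134). It passed with DESeq2, with coverage as an offset and without Thy replicate 1, and over 21 alternatives the adjusted p ran from 0.000603 to 0.194. Without Thy replicate 1, Thy is the single library with raised A>C changes throughout, assumed to vary like the other subsets. A4014G (E34G) had 0.276% and 0.390% in Thy_6C3, a log2 difference of -0.78 ± 0.24 (edgeR adjusted p = 0.771). C4190A (L93I) had 0.515% and 0.502% in 6C3, below all other libraries of its number, with a log2 difference of -0.46 ± 0.17 (edgeR adjusted p = 0.998). For CD29, CD45 and CD105 the smallest p belonged to C4060A, A4014G and G4103T (A64S), with log2 differences of -0.65 ± 0.24, -0.31 ± 0.24 and -0.29 ± 0.20 and adjusted p of at least 0.998.

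Against the other 12 protein genes pooled, mt-Nd2 had a lower transition load, with a mean difference of -0.00730 percentage points over the 16 libraries (exact permutation p = 0.00433, two-sided, 0.00867 after adjustment over 2 measures). Within the numbers the values were unlike, and the difference between the numbers was not tested. In replicate 2 mt-Nd2 was lower in 8 of 8 libraries, with a mean difference of -0.0136 percentage points ± 0.00476 (SD, n = 8; adjusted exact permutation p = 0.0156), and ranked 12th of 13 genes. In replicate 1 it was lower in 4 of 8 libraries, with a mean difference of -0.00101 ± 0.00610 (adjusted exact permutation p = 0.984), and ranked 8th. Without the alleles counted in any library the mean difference over 16 libraries was -0.00682 (adjusted exact permutation p = 0.000183). Libraries of a number share alleles, so these tests over libraries are not tests over separate mutations.

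The difference in counted alleles per kilobase did not pass its test. The gene mt-Nd2 had 7.84 per kilobase in replicate 1 and 9.79 in replicate 2 without Thy, against 4.57 (ND1) to 14.2 (ND4L) and 7.99 (ATP8) to 15.2 (ND3) among the other genes. The mean difference of 2.11 (exact permutation p = 0.834) was set by Thy replicate 2, without which it was -0.474 (adjusted exact permutation p = 0.332). At thresholds of 0.5% and 2% in place of 1% the difference was 7.78 and 1.77 and passed (adjusted exact permutation p = 0.0198 and 0.0111). At 0.5%, Thy replicate 2 had 873 mt-Nd2 alleles, against 49 to 126 in the other libraries. At 2% it had 22, and the others had 2 to 5 each, with C4093T, C4216T and C4493T in every library of replicate 1. These passes are thus not tests over separate mutations, and neither was repeated without Thy replicate 2.

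Silent and amino-acid-changing transitions were compared per possible change, of which mt-Nd2 has 386 synonymous, 607 missense and 42 stop transitions. In replicate 1 the mean fraction of a synonymous transition was 0.170%, of a missense transition 0.142% and of a stop transition 0.0787%. In replicate 2 without Thy these were 0.128%, 0.148% and 0.0707%. These means were not matched for the kind of change. No stop codon of the vertebrate mitochondrial code holds a C, so no T>C change can create a stop. Over the 16 libraries the mean fraction was 0.219% for T>C, 0.138% for C>T, 0.112% for A>G and 0.0672% for G>A. The part of the kind of change in the class means was not tested. The log2 ratio of synonymous to all amino-acid-changing transitions was 0.31 ± 0.12 in replicate 1, above 0 in 8 of 8 libraries, and -0.16 ± 0.07 in replicate 2, below 0 in 8 of 8 (SD, n = 8; adjusted exact permutation p = 0.00781, the smallest that 8 libraries can give, and 0.0156). The difference between the numbers was not tested. Over all 16 libraries it was 0.08 (exact permutation p = 0.257). The other 12 genes had -0.01 ± 0.03 and -0.10 ± 0.02.

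The difference of this ratio between mt-Nd2 and the other 12 genes was 0.13 over the 16 libraries (exact permutation p = 0.0277, 0.0554 after adjustment). It was 0.32 ± 0.11 in replicate 1 and -0.055 ± 0.069 in replicate 2. Leaving out any of 6 libraries of replicate 2 (all but those of Thy and CD105) brought the adjusted p below 0.05. With C>T changes alone the difference was 0.55 (adjusted exact permutation p = 6.1e-05), with 0.65 ± 0.20 in replicate 1 and 0.44 ± 0.19 in replicate 2 (SD, n = 8 each). The C>T ratio of mt-Nd2 itself ran from 0.193 to 0.839 in replicate 1 and from -0.493 to 0.255 in replicate 2. In the other 12 genes it ran from -0.269 to 0.00923 and from -0.650 to -0.448. In these tests too the 16 libraries are not separate mutations: C4093T and C4216T enter the ratio in all 8 libraries of replicate 1. Without the alleles counted in any library, C4093T and C4216T among them, the difference over all transitions was 0.05 (adjusted exact permutation p = 0.111).

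**Figure D4:**
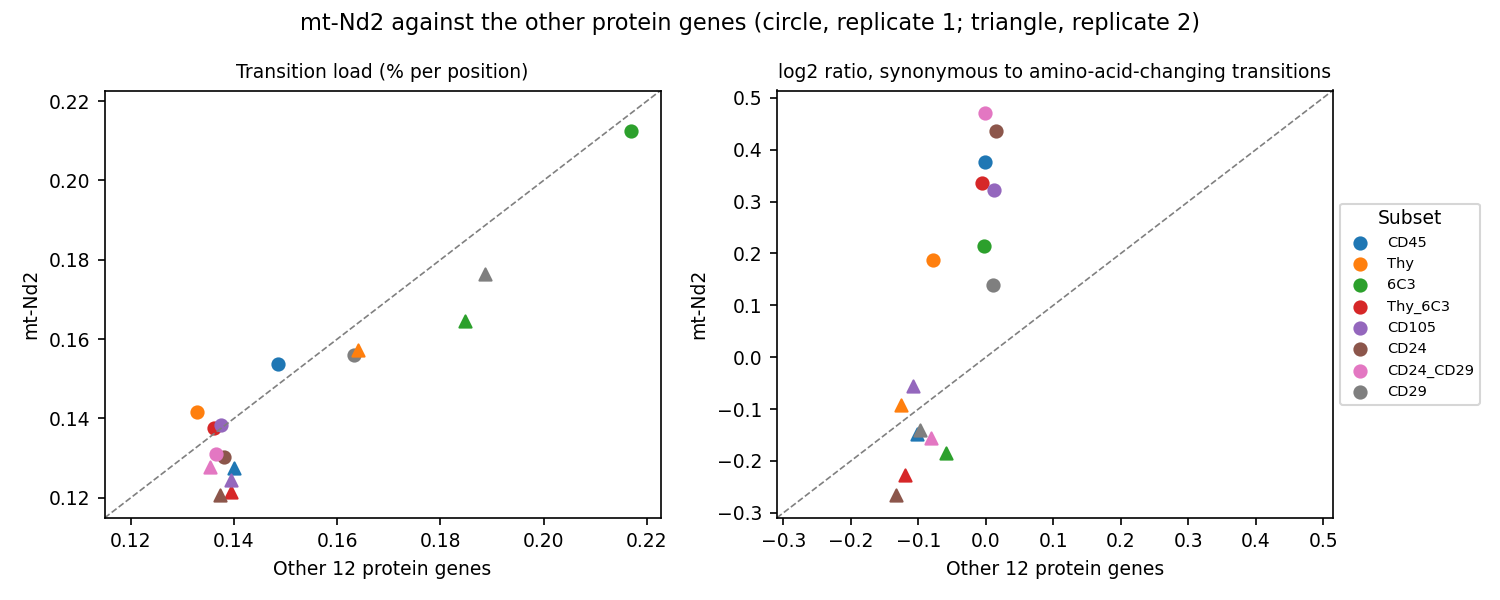
Transition load (% per position) and log2 ratio of synonymous to amino-acid-changing transitions in mt-Nd2 (vertical) against the other 12 protein genes (horizontal), 1 point per library; circles are replicate 1, triangles replicate 2 and the dashed line marks equal values. All triangles lie below the line in the first panel, and all circles lie above it in the second.

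The genes whose transition load followed that of mt-Nd2 most closely over the 16 libraries were ND4 (Pearson's r = 0.962), ATP6 (0.953) and COX2 (0.943). These values are descriptions: the libraries share subsets, replicate numbers and depth between genes. Within replicate 1 and replicate 2 taken alone, r with ND4 was 0.958 and 0.992. Mean transition load was 0.152% in ND4, 0.168% in ATP6 and 0.160% in COX2.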

How the data were processed

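The deposited tables hold raw, whole-number counts made by the authors: coverage per mitochondrial position and, for every base other than the reference, its count, in 16 libraries. The submitters' processing notes list BWA 0.7.17, cutadapt 2.10 and bcl2fastq 2.20 and the builds GRCm38 and mm10, without roles. How base quality, duplicate reads and nuclear copies of mitochondrial sequence were handled is not given in the sources used here, and each can change a low fraction.

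Codons came from RefSeq (GRCm38.p6) and the vertebrate mitochondrial code. Alleles with a mean fraction of 0.5% or more over all 16 libraries (793, of them 55 in mt-Nd2) were fitted with edgeR 4.0.16 (R 4.3.3) on pairs of columns, non-reference and remaining counts, with a term per library and per subset, at a threshold of 0.05 adjusted over the table. DESeq2 1.42.0 was an alternative. In simulated data on 793 alleles, the comparison of replicate numbers recovered 76% of 2-fold and 95% of 4-fold changes and called 11 of 593 unchanged alleles. That of CD24_CD29 recovered 44% and 79% and called 6. Its simulated alleles had no difference between replicate numbers, for which the main subset test has no term. Recovery in the real data may therefore be lower. Single values were compared by exact permutation over libraries: 2027025 pairings for subsets, 256 swaps for replicate numbers and 65536 sign flips for genes. Libraries with the same replicate number deviated together (correlation of deviations from subset means 0.736 to 0.945 over 28 of 28 pairs of subsets). Tests between numbers compared libraries within subsets. The main tests between subsets had no term for the number, so differences between numbers stayed in their spread. A replicate block was fitted as an alternative.

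Named alleles were the 8 with the highest mean of each number, those counted in all 8 libraries of a number, the called or smallest-p alleles of each test, the highest allele private to each library and the 3 highest stops of each number, 31 in all. C4327A, G4748T, T4197C and C4506T were named for standing at the filter. Members, lists and tests were chosen with earlier results of these data known. The rest was computed in Python 3.11.15 with scipy 1.17.1, numpy 2.4.6, numba 0.67.0, Biopython 1.88, pandas 2.3.3 and matplotlib 3.10.9.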

Additional observations from a re-analysis of the deposited data

Results flagged for a closer look

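Within the 8 libraries of a replicate number, 17 sets of mt-Nd2 values were searched for a highest or lowest library whose gap to the next, divided by the range, exceeded Dixon's 95% critical value for 8 values. Chance gives about 1 in 20 such sets, and the 17 sets share libraries.

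Thy replicate 2 stood apart in mutation load, at 1.17% against at most 0.477% in the other libraries of its number, in counted alleles, at 205 against at most 22, and in the load of counted alleles, at 0.279% against at most 0.0366%. CD24_CD29 replicate 1 was highest in the load of counted alleles, at 0.0358% against at most 0.0275%, and in C4493T (L194F), at 9.72% against at most 6.66%. CD24_CD29 replicate 2 was highest in C4548T (T212M), at 5.80% against at most 3.36%. 6C3 replicate 1 had the highest transition load, 0.212% against at most 0.156%. CD29 replicate 1 had the highest coverage of mt-Nd2, 61923 counts per position against at most 32524.

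The log2 ratio of synonymous to amino-acid-changing transitions in mt-Nd2 was above 0 in all 8 libraries of replicate 1 (mean 0.31) and below 0 in all 8 of replicate 2 (mean -0.16). Opposite directions in every library drew attention to it, and the difference between the numbers was not tested.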

How the results depend on the processing

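Of 296 alternatives to the results that answer a comparison, 263 kept direction and side of the threshold, 17 came to pass it, 1 no longer passed, 6 reversed and 9 moved a count by over 1.5 times. Without Thy replicate 1, so that Thy replicate 2 alone stands for its subset and adds no spread within it, subsets held 99.3% of the variance of load, 99.8% of that of counted alleles and 99.4% of that of their load, and all passed. Over all single libraries left out, the share between subsets ran from 50.5% to 99.3% for load, 75.4% to 88.8% for transition load (passing without 6C3 replicate 2), 47.0% to 99.8% for counted alleles and 48.4% to 99.4% for their load. With a replicate block and without Thy, counted alleles held 82.1% and passed; this combination was chosen after the data were seen. The replicate block alone changed no call (adjusted exact permutation p = 0.149 for each of the 4 measures).

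Between replicate numbers, the difference in transition load was 0.0102 percentage points (adjusted exact permutation p = 0.234; 0.00482 to 0.0145 with single libraries left out) and turned to -0.00135 without alleles counted in any library. Against the other 12 genes, the transition load was no longer lower beyond the spread in replicate 1 alone (-0.00101). The difference in counted alleles per kilobase was -0.474 to 2.53 with single libraries left out, -0.660 without both Thy libraries, -0.310 without A>C and T>G changes, and 7.78 and 1.77, both passing, at thresholds of 0.5% and 2%. Neither threshold was rerun without Thy replicate 2, and libraries of a number share alleles.

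The synonymous ratio of mt-Nd2 (log2) passed in replicate 1 alone (0.31), reversed in replicate 2 alone (-0.16) and passed for C>T alone (0.22). For C>T alone the ratio ran from 0.193 to 0.839 in the libraries of replicate 1 and from -0.493 to 0.255 in those of replicate 2. Its difference from the other genes passed in replicate 1 alone (0.32) and for C>T alone (0.55), reversed in replicate 2 alone (-0.055), and ran from 0.11 to 0.15 with single libraries left out.

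Alleles called over all subsets numbered 1 with DESeq2 and 0 to 9 with single libraries left out; in single subsets they numbered 12 with DESeq2, 11 with coverage as an offset, and 0 to 29, the highest of both ranges being without Thy replicate 1 (backgrounds 21.4% over all subsets and 42.4% in Thy, which held all 29). Between replicate numbers 11 to 14 alleles were called in every alternative run. Among libraries of a number, counts divided by 10 left 3 and 3 alleles (backgrounds 48.5% and 48.8%). Testing every allele counted in at least 1 library gave 24 and 236 (96.3% and 99.8%). Those alleles were chosen by the same libraries, so passing was close to fixed in advance. Unless said above, the cause of these changes was not tested. Depth limits single fractions to 0.0545% in the shallowest library. The test of CD24_CD29, over 2 libraries a subset, recovered 44% of 2-fold changes in data simulated without differences between replicate numbers.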
